A study of Mus musculus with 60 samples.

Results

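The maturation of the hippocampus between P10 and P21 (postnatal days 10 and 21) was followed in mice carrying the S119A form of paxillin, by comparing the 2 libraries of P21 with the 2 libraries of P10. These are 4 of the 60 libraries of the series and 4 of its 12 hippocampus libraries, and they were chosen by genotype, tissue, and age in the labels, with no measured value used. Bulk hippocampal RNA was copied into full-length cDNA and read on Nanopore, and the deposited values are reads per transcript. The mice are labelled paxillin KO, paxillin-S119A-KI. The study's methods describe them as Nestin-CreERT2; Paxillin fl/S119A on C57BL/6J. A Pxn allele is floxed, the other carries the S119A change behind a floxed stop, and the Cre needs tamoxifen and is driven by Nestin, so only cells in which Nestin drives Cre at the time of tamoxifen can recombine. Tamoxifen was given before P10. The control libraries, labelled WT and described as Paxillin fl/S119A littermates without Cre, share the floxed allele and the S119A allele, and 2 of them at each age are given beside the S119A values. The 2 S119A libraries of P15 are given as values between the ages.

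In rodents, the weeks after birth are the time when oligodendrocytes of the forebrain start to wrap axons in myelin, when neurons end axon growth and build synapses, and when most divisions outside the dentate gyrus cease. Receptors and channels also change composition in this window, partly through new subunits and partly through splicing of the same gene. In bulk tissue, a change in the number of cells of a type and a change in RNA per cell cannot be told apart.

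The 4 S119A libraries held between 4023000 and 5400967 reads, and the 12 hippocampus libraries between 3162777 and 5687908. P21 replicate 2 stood apart. Among 10571 genes, 23.4% differed by more than 2-fold between the P21 replicates, against 0.804% between the P10 replicates, and mitochondrial ribosomal RNA took 3.61% of its reads against 1.78% in P21 replicate 1 and 0.592% to 0.723% at P10. The S119A library of P15 numbered 2, at 3.97%, and both control libraries numbered 2 at these ages shared the shift, and a term for these 4 libraries was part of the fit. A fitted change is therefore on the scale of the libraries without the shift. A gene was called at an adjusted p under 0.05 by edgeR's quasi-likelihood test with Benjamini-Hochberg adjustment, and was counted as holding in both P21 libraries when each of them also lay beyond both P10 libraries in CPM (the reads of a gene scaled to a fixed library total, after TMM). Libraries of P10 also differed in sex-linked genes. P10 replicate 1 had 12 to 188 reads of each of 4 Y-linked genes and 3 of Xist, whereas the other 3 libraries had none of the former and 259 to 725 of Xist. The labels do not say whether each library is a separate mouse, so p-values measure a spread between libraries. That spread was estimated over all 12 hippocampus libraries, controls included, with the term in the fit. With 2 against 2, an exact permutation test cannot go below p = 0.333.

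Pxn itself (chr5:115491970-115555987, GRCm38), encoding the focal adhesion adaptor that the genotype alters, was read at a low level. It had 39 and 68 reads at P10 and 62 and 45 reads at P21, or 7.54 and 12.5 CPM against 14.9 and 9.17 CPM, with 8.73 and 10.1 CPM at P15. The ages overlapped, the fitted log2 change was 0.48 ± 0.414 (SE), and the gene was not called (adjusted p = 0.454). In the control libraries the log2 change was -0.19. Reads of the recombined and the unrecombined alleles are not separated in these counts.

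Of 13561 genes tested, 2436 (18%) were called, 1231 of them (9.08%) higher and 1205 (8.89%) lower at P21. Of these, 2034 (15%) held in both P21 libraries, 1027 (7.57%) higher and 1007 (7.43%) lower. All of the other 402 lay beyond both P10 libraries in P21 replicate 1 and not in replicate 2. In 711 genes (5.24%) both P21 libraries lay at least 2-fold beyond both P10 libraries, 445 upward and 266 downward. Regardless of the test, the P10 and P21 libraries did not overlap in 7487 genes (55.2%). At P15, replicate 1 lay between the mean P10 and P21 levels in 1847 of the 2034 genes (90.8%), and replicate 2 in 1211 (59.5%). These genes were chosen for P21 lying beyond P10, which favours such a place, and the share over all genes was not counted. The median log2 change over all genes tested was -0.00087. The number of calls depended on single libraries. Without P10 replicate 1, the only one with reads of Y-linked genes, 1000 genes were called, 891 of them among the 2034. Without P10 replicate 2 there were 1184, without P21 replicate 1 there were 1653, and without P21 replicate 2 there were 2176.

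The term for the libraries numbered 2 mattered more. Without it, 313 genes were called, 202 higher and 111 lower, and all 313 were among the 2034. Of the 98 genes chosen for naming besides Pxn, 46 lost their call in that fit. In the myelin list Opalin and Nkx6-2 lost it, and among immature neuron and dividing cell genes Dcx, Cd24a, Tmsb10, and Birc5. Of the glial, vessel, and blood genes below, those that lost it were Neu4, Ptprz1, C1ql1, Slc1a2, Cldn5, Ly6c1, Slco1a4, Hbb-bs, Hbb-bt, and Alas2, and of the largest changes Il23a, St8sia2, Fabp7, and Nts. The others, most of them from the neuronal lists, were Neurod6, C1ql2, Dsp, Wfs1, Vip, Gad1, Grin1, Grin3a, Gria1, Gabra3, Gabrd, Slc12a2, Slc12a5, Slc17a6, Stx1a, Vamp1, Bsn, Tnc, Camk4, Fosb, Srsf2, Mbnl2, Mbnl1, Rbfox1, Tln1, and Clta. Fitted alone, with no term, the 4 S119A libraries of P10 and P21 gave 0 called genes of 12721 tested.

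**Figure D1:**
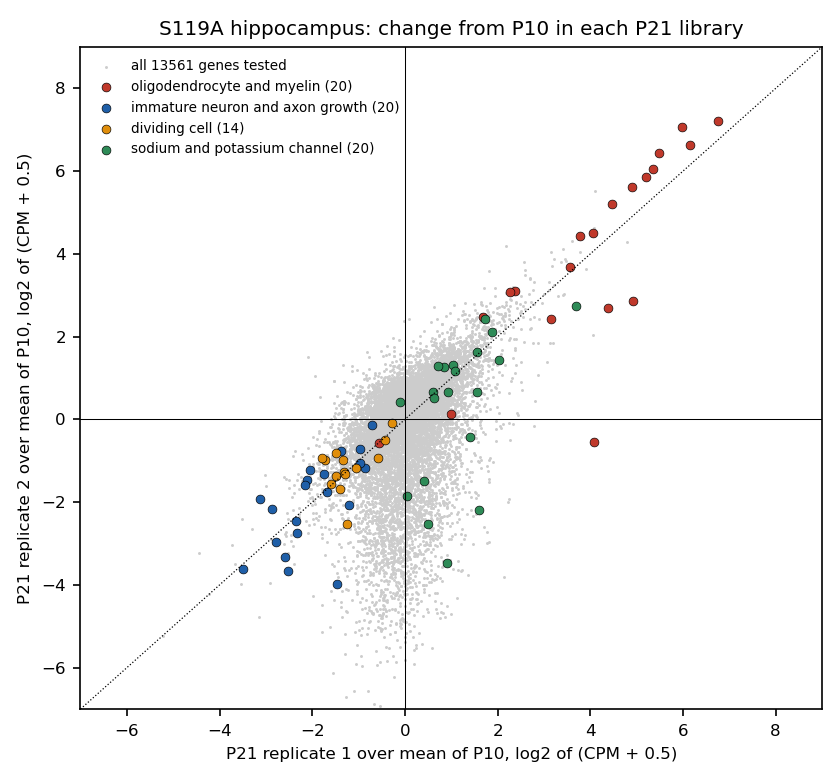
Each point is a gene, with the level in P21 replicate 1 (x axis) and P21 replicate 2 (y axis) over the mean of the P10 libraries, as log2 of CPM plus 0.5. Of the 20 myelin genes, 18 lie upper right, the 20 immature neuron genes and 14 dividing cell genes lie mostly lower left, and the scatter of the other genes around the dotted line of equality shows how far the P21 libraries differ.

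The largest rises belonged to myelin. Of 20 genes of oligodendrocytes and myelin, 19 were called as higher, where 9.08% of all genes were, and 18 held in both P21 libraries. For the lists below without a share beside them, 18% of all genes were called in either direction and 15% held. The median log2 change of the list was 4.53, with a range from -0.22 for Cntn2 to 8.78 for Opalin. The summed level of the list was 454 and 461 CPM at P10, 2708 and 1004 CPM at P15, and 6172 and 9406 CPM at P21, so no library of one age reached another age. Opalin, a membrane protein of mature oligodendrocytes, had no read in either P10 library, 2.6 and 0 CPM at P15, and 10.5 and 17.9 CPM at P21. Set against a floor of 3 reads per library, its P21 level was at least 18.2-fold higher. Mal, a proteolipid of myelin membrane, rose from 1.74 and 2.57 CPM to 285 and 394 CPM (log2 change 7.36 ± 0.545, adjusted p = 4.07e-06). Levels of Mobp, a cytoplasmic myelin protein, went from 8.31 and 6.43 CPM to 495 and 1052 CPM (6.64 ± 0.636, adjusted p = 2.42e-05). Mog, an outer-surface glycoprotein of myelin, went from 7.35 and 8.45 CPM to 597 and 839 CPM (6.48 ± 0.591, adjusted p = 1.79e-05). Mal, Mobp, and Mog stood at intermediate levels at P15, with replicate 1 above replicate 2 in each, for instance 258 and 64.8 CPM for Mobp.

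The tight junction gene of myelin, Cldn11, rose from 4.45 and 3.49 CPM to 199 and 388 CPM (5.67 ± 0.503, adjusted p = 1.61e-05). Ermn, a cytoskeletal protein of late myelinating cells, rose from 0.58 and 2.2 CPM to 77.2 and 126 CPM (6.07 ± 0.597, adjusted p = 2.97e-05). Other members were already well read at P10. Mbp, the basic protein that compacts myelin, went from 113 and 110 CPM to 360 and 620 CPM (2.13 ± 0.353, adjusted p = 0.00128), and the enzyme gene Cnp went from 136 and 151 CPM to 746 and 1229 CPM (2.75 ± 0.292, adjusted p = 5.22e-05). Trf, the iron carrier transferrin made by oligodendrocytes, rose from 36.9 and 54 CPM to 764 and 1050 CPM (4.26 ± 0.322, adjusted p = 4.35e-06). Nkx6-2, a homeobox factor of the lineage, was higher in both P21 libraries but at unequal levels, 48.4 and 11.2 CPM against 0.58 and 1.65 CPM at P10 (5.49 ± 0.472, adjusted p = 1.21e-05). Cntn2, which also marks axons, was not called (log2 change -0.22, adjusted p = 0.861). The myelin genes called here kept their calls whichever of the 4 libraries was left out.

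Among 12 genes of oligodendrocyte precursors and their next stage, 4 were called as higher and 3 as lower, all in both P21 libraries, and the list's median log2 change was 0.03. Enpp6, which marks newly formed oligodendrocytes, rose from 4.64 and 4.04 CPM to 21.3 and 32.6 CPM (2.56 ± 0.362, adjusted p = 0.000402), and its P15 levels of 23.8 and 12.4 CPM reached into the P21 range. Ptprz1, a receptor phosphatase of precursors and radial glia, fell from 224 and 198 CPM to 104 and 143 CPM (-1.02 ± 0.151, adjusted p = 0.000575). Pdgfra, the receptor that defines the precursors, had 30.7 and 38.7 CPM at P10 and 22.1 and 24.9 CPM at P21 and was not called (-0.21, adjusted p = 0.71). Neu4 (1.43 ± 0.355, adjusted p = 0.0145) and C1ql1 (-0.81 ± 0.216, adjusted p = 0.0206) were called too. Neu4 lost the call without P10 replicate 1 and without P21 replicate 2, and C1ql1 lost it without either P10 library and without P21 replicate 2.

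Genes of immature neurons and axon growth moved the other way. Of 20 members, 19 were called as lower, against 8.89% of all genes, and 18 held in both P21 libraries, with a median log2 change of -1.93. Together they took 38370 and 37639 CPM at P10, 20520 and 24043 CPM at P15, and 10492 and 12632 CPM at P21. Dpysl3, which acts on the growth cone cytoskeleton, fell from 682 and 562 CPM to 55.1 and 50.3 CPM (-3.31 ± 0.265, adjusted p = 6.43e-06), with 159 and 106 CPM at P15. Cd24a, a surface glycoprotein of young neurons, fell from 132 and 111 CPM to 13.4 and 31.6 CPM (-3.01 ± 0.206, adjusted p = 1.79e-06). Gap43, the growth-associated protein of axon tips, fell from 775 and 722 CPM to 146 and 135 CPM (-2.52 ± 0.237, adjusted p = 2.15e-05). The tubulin gene Tuba1a, whose close copies leave its share of reads uncertain, fell from 18362 and 17540 CPM to 4029 and 5968 CPM (-2.07 ± 0.126, adjusted p = 1.42e-06). Dcx, a microtubule protein of migrating neurons, fell from 26.7 and 22.4 CPM to 5.27 and 8.56 CPM (-1.59 ± 0.354, adjusted p = 0.00805). In these genes the ages did not overlap. Dcx lost its call without P10 replicate 1 and without P21 replicate 1 (-0.64 in the latter). Tmsb10 was called (-1.31) but did not hold in replicate 2 and was called by no fit that left out a P10 library or P21 replicate 2, and Draxin was not called.

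Of 14 genes of dividing cells, 10 were called as lower, all 10 in both P21 libraries, none was called as higher, and the median log2 change was -1.32. Birc5, which acts in chromosome segregation, fell from 13.5 and 12.3 CPM to 4.32 and 4.69 CPM (-1.76 ± 0.299, adjusted p = 0.00151). Cdk1, the kinase that drives mitosis, fell from 11.6 and 10.3 CPM to 3.84 and 3.06 CPM (-1.66 ± 0.344, adjusted p = 0.00543) and missed the threshold without P10 replicate 1 (adjusted p = 0.0502). Mki67, the usual marker of cycling cells, had 4.83 and 4.59 CPM at P10 and 1.68 and 0.407 CPM at P21 and was not called (adjusted p = 0.0621). At P15 Birc5 was at 3.71 and 6.04 CPM and Cdk1 at 2.97 and 4.36 CPM, all below both P10 libraries.

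**Figure D2:**
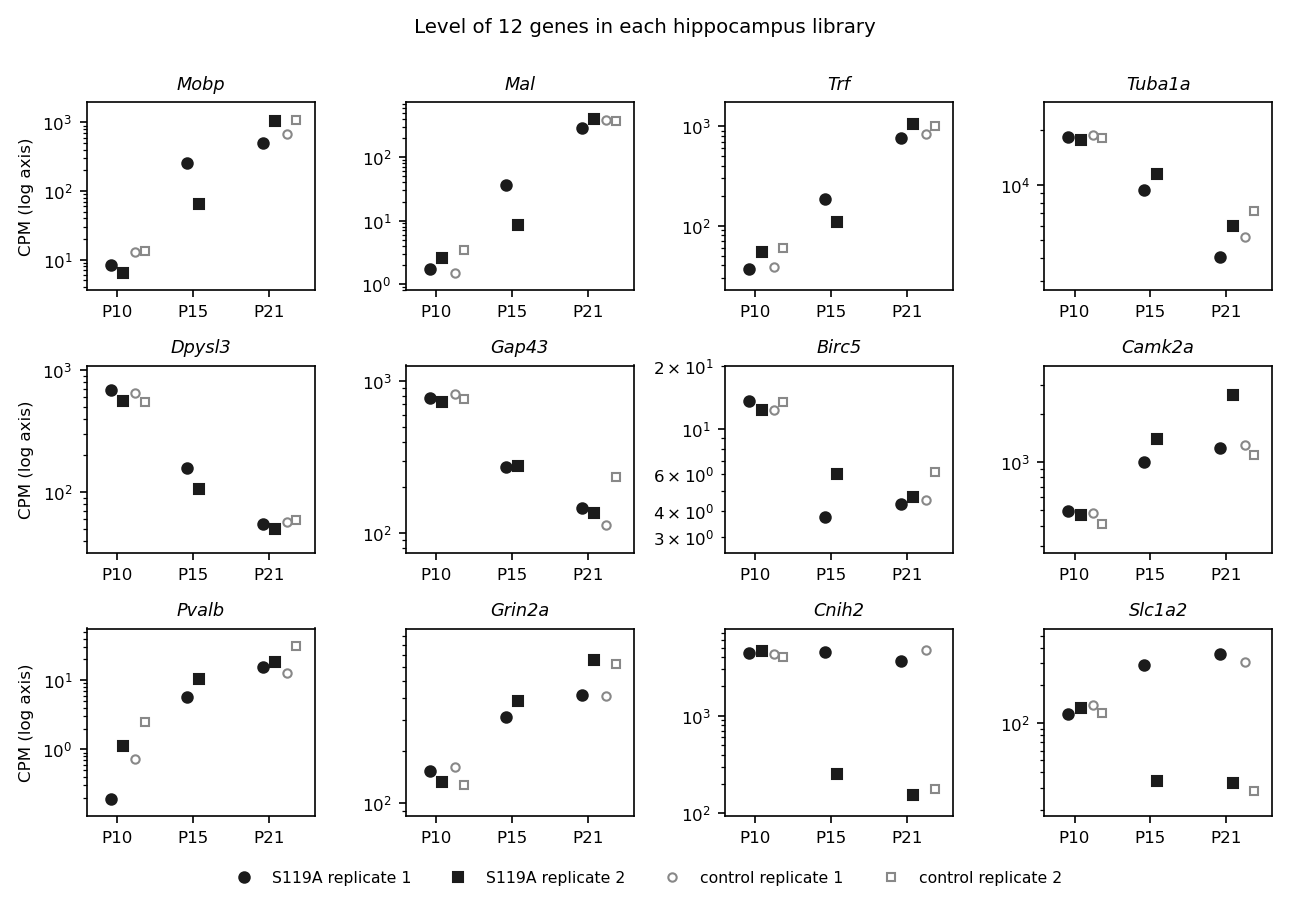
Level of 12 genes in each library in CPM on a log axis, with S119A as filled and control as open symbols, circles for replicate 1 and squares for replicate 2. Mobp, Mal, and Trf rise and Tuba1a, Dpysl3, Gap43, and Birc5 fall without overlap of P10 and P21, while in Cnih2 and Slc1a2 replicate 2 lies far below replicate 1 at P15 and P21 in S119A and at P21 in control.

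Over all genes, the list of the 10 largest falls that were at least 2-fold in both P21 libraries was led by Avpr1a, a vasopressin receptor. It went from 17.4 and 13.8 CPM to 0.24 and 1.22 CPM (-4.67 ± 0.579, adjusted p = 0.000167), with 1.3 and 3.36 CPM at P15. Nnmt, a methyltransferase of nicotinamide, fell from 21.1 and 23 CPM to 1.2 and 2.24 CPM (-4.21 ± 0.352, adjusted p = 9.5e-06). Fabp7, a fatty acid binding protein of radial glia and young astrocytes, fell from 1040 and 786 CPM to 78.9 and 171 CPM (-3.47 ± 0.31, adjusted p = 1.71e-05). Rac3, a small GTPase of neurite growth, fell from 500.1 and 449.5 CPM to 62.3 and 30.2 CPM (-3.15 ± 0.201, adjusted p = 1.42e-06). The neuropeptide gene Nts fell from 192 and 201 CPM to 21.8 and 6.72 CPM (-3.43 ± 0.459, adjusted p = 0.000292). St8sia2, the enzyme that adds polysialic acid to NCAM in young neurons, went from 14.5 and 12.9 CPM to 0.719 and 0.407 CPM (-3.65 ± 0.58, adjusted p = 0.000973), and without P21 replicate 1 it was not called (-1.5, adjusted p = 0.564). Epb41l4a also lost its call without P21 replicate 1 (-3.03 with all libraries, -1.89 without it). Gm3005 and Gm3752 (-4.27 and -3.08) belong to a multigene family, so their counts are uncertain, and Dpysl3 completed the 10. The 10 largest rises were mostly members of the myelin list, among them Opalin, Mal, Mobp, Mog, Ermn, Cldn11, and Nkx6-2. Those outside it were Gm19439, a predicted gene, with 0 and 0.184 CPM at P10 and 9.59 and 26.5 CPM at P21 (6.44 ± 0.746, adjusted p = 0.000102), and the cytokine subunit gene Il23a, with 0.387 and 0 CPM against 7.91 and 13.2 CPM (5.57 ± 1.08, adjusted p = 0.00352). The fitted log2 change of Il23a was 8.70 without P10 replicate 1, whose 2 reads were the only ones at P10.

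Neuronal genes of excitability rose in part. Of 20 genes of sodium and potassium channels, 11 were called as higher and none as lower, and 9 held in both P21 libraries (median log2 change 1.26). Scn4b, an accessory subunit of sodium channels, rose from 1.55 and 0.551 CPM to 19.7 and 9.78 CPM (3.90 ± 0.576, adjusted p = 0.000581). Scn1a, the pore-forming subunit rich in inhibitory neurons, rose from 2.13 and 2.2 CPM to 10.3 and 6.72 CPM (2.12 ± 0.376, adjusted p = 0.00205), and its P15 levels of 2.04 and 1.68 CPM were still at those of P10.

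Among 19 glutamate receptor genes and partners, 4 were called as higher and 1 as lower, of which 2 and 1 held (median 0.42). The members that held were near the 15% of all genes that did, so the list as a whole did not stand out. Grin2a, the NMDA receptor subunit of mature synapses, rose from 154 and 133 CPM to 416 and 653 CPM (1.59 ± 0.167, adjusted p = 5.19e-05). Grin2b, the subunit that predominates early, had 16.4 and 8.81 CPM at P10 and 10.3 and 23 CPM at P21, so the ages overlapped (-0.05, adjusted p = 0.953). Grin3a, a subunit of juvenile receptors, fell from 64.2 and 52.7 CPM to 23.5 and 23.8 CPM (-1.62 ± 0.287, adjusted p = 0.00197). Gria1, an AMPA receptor subunit, rose from 62.6 and 72.5 CPM to 123 and 147 CPM (1.12 ± 0.225, adjusted p = 0.00439). Grin1, the obligatory NMDA receptor subunit, was called (0.96, adjusted p = 0.0113), though not without P10 replicate 1, and did not hold, with 245 and 78.4 CPM at P21 on either side of 113 and 134 CPM at P10. Cnih2, an AMPA receptor auxiliary protein, was not called, and its P21 replicates lay far apart, with 4392 and 4625 CPM at P10 and 3665 and 155 CPM at P21.

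Of 14 genes of GABA-A receptors and chloride transporters, 4 were called as higher and 1 as lower, and 3 and 1 held (median 0.03). Among all genes, 18% were called and 15% held. Gabrd, the subunit of extrasynaptic receptors, rose from 7.15 and 10.7 CPM to 26.1 and 20.4 CPM (1.5 ± 0.273, adjusted p = 0.0025). Gabra3, a subunit of young neurons, fell from 45.8 and 58.8 CPM to 25.9 and 21.6 CPM (-0.93 ± 0.258, adjusted p = 0.0247), a call that held only with both P10 libraries and P21 replicate 1 in the fit. Slc12a2, the chloride importer NKCC1, which is also made by glia, rose from 6.77 and 6.79 CPM to 27.1 and 18.5 CPM (2.17 ± 0.338, adjusted p = 0.000856). Slc12a5, the exporter KCC2, was called (0.98, adjusted p = 0.00588), though not without P10 replicate 1 or P21 replicate 1, but was at 123 CPM in one P21 library and 17.1 CPM in the other, against 49.5 and 61.7 CPM at P10.

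Genes of synaptic vesicles and release gave 7 higher and 2 lower calls among 20, of which 5 and 2 held (median 0.53). The shares over all genes were 18% called and 15% holding. Bsn, a scaffold of the active zone, rose from 41 and 36.5 CPM to 146 and 79.3 CPM (1.59 ± 0.338, adjusted p = 0.00629), but not without P21 replicate 1 (1.03, adjusted p = 0.102). The vesicle protein gene Vamp1 rose by 1.39 ± 0.25 (adjusted p = 0.0022). Slc17a6, the glutamate transporter VGLUT2 of early terminals, fell from 35.6 and 43.5 CPM to 14.1 and 8.35 CPM (-1.28 ± 0.274, adjusted p = 0.00652), and the call was lost without P10 replicate 2 and without P21 replicate 1. Stx1a, a t-SNARE, had a log2 change of -0.69 ± 0.17 (adjusted p = 0.0136) and lost its call without either P10 library or P21 replicate 2. Snap25, its partner in membrane fusion, was at 2054 and 2277 CPM at P10 and 3001 and 3346 CPM at P21 and was not called (0.79 ± 0.286, adjusted p = 0.0734). It was called without P21 replicate 1 (1.36, adjusted p = 0.0161), without the filter on low counts, by DESeq2 (adjusted p = 0.0487), and in a fit of only the 8 libraries not numbered 2 at P15 or P21 (0.48, adjusted p = 0.00951).

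Among 18 genes of CaM kinases and neuronal activity, 9 were called as higher and 1 as lower, all in both P21 libraries (median 0.60). Arc, an immediate early gene of excitatory synapses, rose from 60.5 and 81.5 CPM to 267 and 375 CPM (2.33 ± 0.265, adjusted p = 9.13e-05), and its P15 levels were 280 and 161 CPM. Camk2a, the alpha subunit of the main synaptic kinase, rose from 496 and 466 CPM to 1215 and 2599 CPM (1.72 ± 0.241, adjusted p = 0.000383). The early gene Fosb (3.23 ± 0.787, adjusted p = 0.0128) was at or below 0.367 CPM at P10 and at 4.08 and 3.87 CPM at P21, and it was not called without either P10 library or P21 replicate 1. Camk4, a nuclear kinase of this family, was the lower call (-1.06 ± 0.285, adjusted p = 0.0212) and was lost without the same libraries.

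For 12 general neuron genes the counts were 3 higher and 1 lower, with 2 and 1 holding (median 0.57), where 15% of all genes held. Eno2, a neuronal enolase, rose from 117 and 113 CPM to 285 and 332 CPM (1.29 ± 0.139, adjusted p = 5.83e-05), whereas the tubulin gene Tubb3 fell from 2918 and 3014 CPM to 726 and 929 CPM (-2.02 ± 0.135, adjusted p = 1.48e-06). Rbfox3, the nuclear marker NeuN, was at 87.4 and 84.1 CPM at P10 and at 93 and 3.46 CPM at P21 and was not called (0.17, adjusted p = 0.581). Its P15 replicates were split likewise, at 87.1 and 3.02 CPM. Of 12 genes of GABAergic interneurons, 6 were called as higher, all in both P21 libraries (median 1.02). Pvalb, the calcium buffer of fast-spiking interneurons, rose from 1 and 6 reads to 64 and 91 reads, or from 0.193 and 1.1 CPM to 15.3 and 18.5 CPM (4.16 ± 0.58, adjusted p = 0.000373). Gad1, which makes GABA, rose from 76.4 and 99.7 CPM to 187 and 193 CPM (1.24 ± 0.183, adjusted p = 0.000572). Vip (1.39 ± 0.341, adjusted p = 0.0136) was called but not without P10 replicate 1 or P21 replicate 1, and Sst had a log2 change of 0.07 (adjusted p = 0.907).

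Prox1, Wfs1, and Neurod6, which mark fields of the hippocampus, were read in all 4 libraries. Of 12 such genes, 5 were called as higher and 1 as lower, all holding (median 0.16), where 15% of all genes held. Prox1, which marks dentate granule cells, stayed between 23.5 and 33.4 CPM in the P10 and P21 libraries (0.08, adjusted p = 0.905). C1ql2, a secreted protein of the same cells' mossy fibers, rose from 28.8 and 31.6 CPM to 122 and 37.5 CPM (2.01 ± 0.247, adjusted p = 0.000161), with replicate 2 only just above P10. Wfs1, a CA1 marker, rose from 87.2 and 81.9 CPM to 291 and 296 CPM (1.94 ± 0.303, adjusted p = 0.000877). Dsp, a desmosomal protein of granule cells, was at 0.967 and 1.1 CPM at P10 and at 6.23 and 7.54 CPM at P21 (3.00 ± 0.677, adjusted p = 0.00857) and lost its call without either P10 library. Neurod6, a transcription factor of pyramidal neurons, fell from 937 and 896 CPM to 437 and 573 CPM (-0.87 ± 0.21, adjusted p = 0.0121), and was called only with both P10 libraries and P21 replicate 1 in the fit.

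Of 12 genes of perineuronal nets and brain matrix, 3 were called as higher and 2 as lower, all holding (median 0.20). The share of all genes that held was 15%. Hapln2, the link protein at nodes of Ranvier, had 0 and 0.367 CPM at P10 and 3.6 and 7.13 CPM at P21 (4.43 ± 0.75, adjusted p = 0.00147). Its fitted change was 7.55 without P10 replicate 2, which held the only P10 reads. Hapln4, a link protein of perisynaptic matrix, rose from 3.29 and 4.59 CPM to 43.6 and 34.4 CPM (3.47 ± 0.259, adjusted p = 4.09e-06), with 26 and 23.8 CPM at P15. Ncan, the proteoglycan of juvenile matrix, fell from 1294 and 1302 CPM to 684 and 462 CPM (-1.05 ± 0.156, adjusted p = 0.000617). Tnc, a matrix glycoprotein of the young brain, was also lower (-1.39 ± 0.317, adjusted p = 0.00905), but not without P10 replicate 1 or P21 replicate 1. Acan, the core proteoglycan of perineuronal nets, had a log2 change of 0.18 (adjusted p = 0.886).

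Of 15 astrocyte genes, 7 were called as higher and 5 held (median 0.52), and the summed list was at 8248 and 8390 CPM at P10 and at 12075 and 6220 CPM at P21, on either side. Gjb6, a connexin of mature astrocytes, rose from 22.8 and 39.8 CPM to 137 and 179 CPM (2.16 ± 0.23, adjusted p = 5.26e-05). S100b, a calcium-binding protein, rose from 18.9 and 17.8 CPM to 58.7 and 109 CPM (1.83 ± 0.209, adjusted p = 9.44e-05). Gfap, the intermediate filament, was not called (0.15, adjusted p = 0.592). Slc1a2, the main glutamate transporter, was called (1.5, adjusted p = 5.91e-05) but did not hold, with 360 and 32.8 CPM at P21 against 117 and 131 CPM at P10. Among 11 microglial genes tested of 12, 4 were called as higher and all 4 held (median 0.29). Tmem119, a microglial surface marker, rose from 13.3 and 18.5 CPM to 38.1 and 40.3 CPM (1.33 ± 0.217, adjusted p = 0.00114), and the protease gene Ctss from 52.2 and 65.9 CPM to 150 and 162 CPM (1.42 ± 0.177, adjusted p = 0.000173).

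Genes of cells outside the parenchyma varied between single libraries. Of 8 choroid plexus genes none was called, and their summed level was 2277 and 768 CPM at P10, 434 and 5980 CPM at P15, and 2752 and 4176 CPM at P21. Ttr, which choroid plexus makes in bulk, was at 1944 and 520 CPM at P10 and 1486 and 3155 CPM at P21 (-0.45 ± 1.2, adjusted p = 0.837). Of 3 red blood cell genes tested of 5, all 3 were called as higher and held (median 1.93). Hbb-bs, an adult beta-globin gene nearly identical to its neighbour, was at 144 and 89.4 CPM at P10 and 415 and 1411 CPM at P21 (1.58 ± 0.28, adjusted p = 0.00196), and Alas2, which starts haem synthesis in red cells, had a log2 change of 1.93 (adjusted p = 0.00172). Summed, these genes stayed at or below 1780 CPM. Of 10 blood vessel genes, 2 were called as higher and 1 as lower, all holding (median 0.09), where 15% of all genes held. Slco1a4, a transporter of brain capillaries, rose from 15.7 and 11.9 CPM to 34.8 and 24.7 CPM (1.5 ± 0.26, adjusted p = 0.00175). Ly6c1 (0.99, adjusted p = 0.0101) lost its call without P10 replicate 2. Cldn5, the tight junction protein of capillaries, was at 112.5 and 118.99 CPM at P10 and at 58.3 and 12 CPM at P21 (-1.40 ± 0.374, adjusted p = 0.0208). It lost its call without either P10 library and without P21 replicate 2, and its change was -2.33 without P21 replicate 1. The part of these cells in the neuronal and glial results was not tested.

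Cholesterol synthesis, which supplies growing membranes, gave 5 lower calls and no higher one among 16 genes, all in both P21 libraries (median -0.55). Sqle, an early enzyme of the sterol branch, fell from 546 and 595 CPM to 271 and 265 CPM (-1.01 ± 0.15, adjusted p = 0.000605), and Nsdhl, a later enzyme, had a log2 change of -1.05 ± 0.175 (adjusted p = 0.00135). Of 11 focal adhesion genes tested of 12, the group to which Pxn belongs, only Tln1, which links integrins to actin, was called (median of the list 0.07). It was at 4.25 and 3.86 CPM at P10 and 10.8 and 6.72 CPM at P21 (1.32 ± 0.432, adjusted p = 0.0496), and the call was lost without any one of the 4 libraries. Of 29 genes of splicing factors tested of 30, 4 were called as higher and 1 as lower, a share near the 18% called among all genes, and 3 and 1 held (median 0.12). Mbnl2, a regulator of postnatal exon switches, rose from 78.9 and 86.1 CPM to 168 and 153 CPM (1.22 ± 0.195, adjusted p = 0.00104). Rbfox1, a neuronal splicing regulator, had a log2 change of 1.17 ± 0.316 (adjusted p = 0.0217), and the call was lost without either P10 library and without P21 replicate 2. Mbnl1 (1.46 ± 0.396, adjusted p = 0.022) lost its call without either P10 library and without P21 replicate 2. Srsf2, a general splicing factor, was at 161 and 156 CPM at P10 and at 96.4 and 14.9 CPM at P21 (-0.62 ± 0.171, adjusted p = 0.0239), but P15 replicate 1 was at 157 CPM, and the call needed both P10 libraries and P21 replicate 1.

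**Figure D3:**
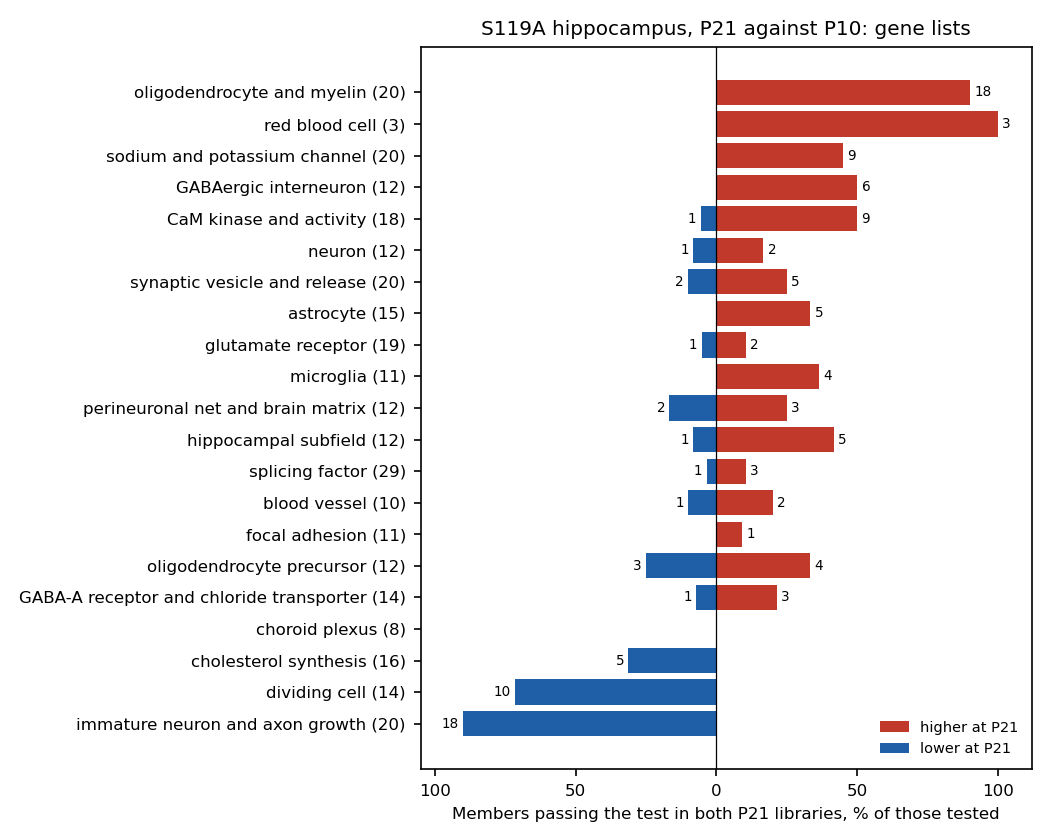
Share of tested members of each of 21 gene lists that were called and held in both P21 libraries, with rises to the right and falls to the left in percent of the members tested, and the number of members at each bar. Myelin (18 of 20 higher) and immature neuron genes (18 of 20 lower) stand at the ends, and choroid plexus has none.

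Single transcripts were then tested. Of 24751, 3743 (15.1%) were called, 2041 higher and 1702 lower, and 3188 (12.9%) held in both P21 libraries. Without the term, 389 transcripts were called, 72.5% of them higher against 54.5% with it, and there were 1540 without P10 replicate 1, 1864 without P10 replicate 2, and 2481 without P21 replicate 1. In 64 genes, transcripts of the same gene moved in opposite directions in both P21 libraries. To separate isoform choice from gene level, the log2 change of each transcript was tested against that of its gene with edgeR's diffSpliceDGE. Shares of the gene's reads are given beside the test. A transcript with most of its gene's reads largely sets the gene's change, so its share can move without a call. Of 17544 transcripts in 5858 genes, 430 (2.45%) changed their use, 230 upward and 200 downward, and 406 (2.31%) in 312 genes held in both P21 shares. These counts depended on the fit as well. Without the term for the libraries numbered 2, 22 transcripts were called, and of the 57 isoform calls chosen for naming 51 were lost, so that of the calls described below Mbp NM_001025256.2 and Gsn NM_001206367.1 were the only ones kept. There were 144 calls without P10 replicate 1, 171 without P10 replicate 2, and 178 without P21 replicate 1. Of the 312 genes, 118 were also called at the gene level and 194 were not. The shares of the P21 replicates differed by less than 10 percentage points for 364 of the 406 transcripts and by more than 20 points for 24. At P15, replicate 1 lay between the mean shares of P10 and P21 for 379 of the 406 and replicate 2 for 302. Here too the choice of transcripts favours such a place, and the count over all transcripts tested was not made. Of 46 genes on a list of developmental isoform switches, 45 could be tested, and 22 of them had a called transcript that held. Among all 5858 genes tested for use, 312 had one. As genes, 15 of the 46 were called as higher and 4 as lower, and 11 and 4 held (median 0.47).

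Mutually exclusive exons of equal length allow the switch to be read at the level of sequence. Snap25 carries exon 5a or 5b, each 118 bases long, at chr2:136769743-136769860 and chr2:136770057-136770174 (GRCm38, plus strand, GENCODE M21). They are 73.7% identical, and the 31 bases that differ are in capitals below.
Snap25 exon 5a: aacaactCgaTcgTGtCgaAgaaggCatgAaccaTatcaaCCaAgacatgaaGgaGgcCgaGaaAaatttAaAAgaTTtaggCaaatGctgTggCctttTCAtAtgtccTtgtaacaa
Snap25 exon 5b: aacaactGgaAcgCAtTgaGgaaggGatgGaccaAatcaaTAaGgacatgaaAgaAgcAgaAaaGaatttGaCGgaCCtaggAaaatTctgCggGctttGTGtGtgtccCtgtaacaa
The 5a transcript NM_001291056.1 took 34.8% and 37.2% of Snap25 reads at P10, 17.7% and 20.2% at P15, and 12.9% and 7.98% at P21 (adjusted p = 2.14e-05), out of 10627 to 16423 reads of the gene at P10 and P21. This call was kept whichever of the 4 libraries was left out but not without the term (adjusted p = 0.857). The 5b transcript NM_011428.3 took 64.4% and 61.7% at P10, 81.1% and 78.5% at P15, and 85.9% and 90.9% at P21. Its share thus rose as that of 5a fell, but its change against the whole gene was not called by diffSpliceDGE (adjusted p = 0.602). The level of the whole gene, given above, was not called.

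Gria1 contains flip and flop, a pair of exons of 115 bases that shape how fast the AMPA receptor desensitizes. The flip exon lies at chr11:57310608-57310722 and the flop exon at chr11:57309769-57309883 (GRCm38, plus strand, GENCODE M21). They are 68.7% identical, with the 36 differing bases in capitals.
Gria1 flip exon: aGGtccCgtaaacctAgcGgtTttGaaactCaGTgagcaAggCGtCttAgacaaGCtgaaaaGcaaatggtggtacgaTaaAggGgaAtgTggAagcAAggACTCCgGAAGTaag
Gria1 flop exon: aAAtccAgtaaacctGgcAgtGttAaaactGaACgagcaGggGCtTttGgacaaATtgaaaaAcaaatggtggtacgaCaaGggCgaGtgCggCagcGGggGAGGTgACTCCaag
The flop transcript NM_008165.4 rose from 23.8% and 34.9% of Gria1 reads to 68.6% and 61% (adjusted p = 0.0369), with 58.3% and 48.2% at P15. The flip transcript NM_001113325.2 fell from 72.2% and 62% to 26.3% and 35% (adjusted p = 0.039). The gene had 324 to 720 reads in the P10 and P21 libraries, and both calls needed both P10 libraries and P21 replicate 1 in the fit.

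Further switches turned on a single cassette exon that was included more often at P21. The exon is in capitals below, with 15 flanking bases of the transcript on each side in lower case. The Ndrg4 exon of 39 bases lies at chr8:95712325-95712363 (plus strand) and the Camkk2 exon of 43 bases at chr5:122736988-122737030 (minus strand), both in GRCm38.
Ndrg4 exon: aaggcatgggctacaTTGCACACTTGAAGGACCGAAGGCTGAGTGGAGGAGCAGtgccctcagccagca
Camkk2 exon: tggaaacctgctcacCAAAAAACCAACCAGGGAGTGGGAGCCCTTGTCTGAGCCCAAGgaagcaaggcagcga
Ndrg4 encodes a cytoplasmic protein of the NDRG family. Its transcript with the exon, NM_001195006.2 (15 exons, coding length 1056 bases), rose from 28.7% and 32.6% of the gene's reads to 81.4% and 83.2% (adjusted p = 3.47e-05). The one without it, NM_145602.4 (14 exons, 1017 bases), fell from 61.8% and 58.5% to 13.3% and 10.9% (adjusted p = 4.25e-10). This was among the most deeply read switches, with 7333 to 10304 reads of the gene in the P10 and P21 libraries, and at P15 the form with the exon was already at 71.8% and 74.5%.

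Camkk2 encodes a kinase that activates other CaM kinases and AMPK. Its form with the 43-base exon, NM_001199676.1 (coding length 1764 bases), rose from 43% and 42.9% to 83% and 87.7% of the gene's reads (adjusted p = 0.00684). The form without it, NM_145358.2 (1623 bases), fell from 54.2% and 54.7% to 13.5% and 10.2% (adjusted p = 1.63e-06). These coding lengths differ by more than the exon, so the coding sequences of the Camkk2 forms differ beyond it. The fall kept its call without any one of the 4 libraries, but the rise was not called without either P10 library or P21 replicate 1. GENCODE lists the Ndrg4 accessions in other versions than the counts.

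**Figure D4:**
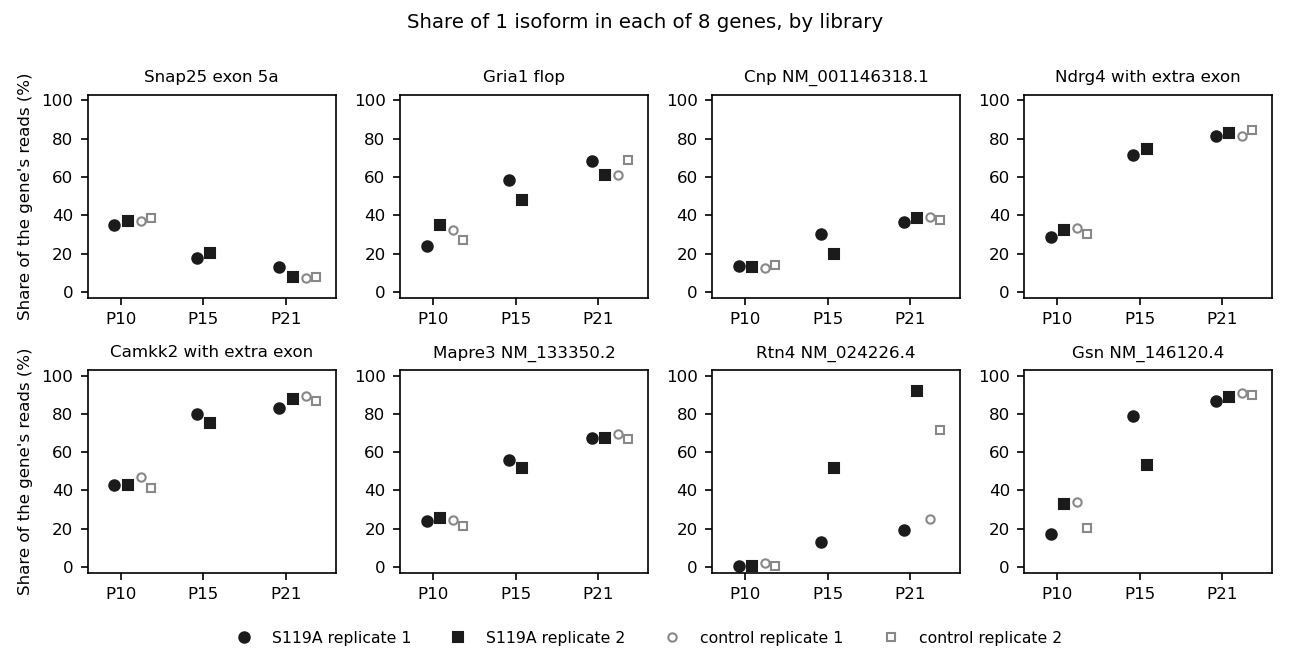
Share of 1 isoform in the reads of each of 8 genes, in percent, by age, with S119A as filled and control as open symbols, circles for replicate 1 and squares for replicate 2. The Snap25 exon 5a form falls and the Gria1 flop, Cnp, and Ndrg4 forms rise in both replicates and both genotypes, and in P21 the symbols of a genotype lie within 10 points of each other in these 4 genes.

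Gsn, Mapre3, Dbndd2, and Plekhb1 were also among the genes with the largest changes of share. Gsn, an actin-severing protein that oligodendrocytes also make, rose in reads from 155 and 161 to 2144 and 3656. Its transcript NM_146120.4 (coding length 2340 bases) went from 17.4% and 32.9% to 86.9% and 88.7% of them (adjusted p = 0.0428). NM_001206367.1 (2193 bases) fell from 65.2% and 55.9% to 5.78% and 3.97% (adjusted p = 1.98e-05), and this call was kept whichever of the 4 libraries was left out, while the call of the rise was lost in every such fit. Mapre3, a microtubule end-binding protein of neurons, went from 24.2% and 25.4% to 67.2% and 67.6% in NM_133350.2 (adjusted p = 0.000418). Dbndd2 NM_001048229.1 rose from 20.7% and 20.2% to 52.2% and 72.6% (adjusted p = 0.00723), a call lost without either P10 library. Its coding length of 474 bases is also that of NM_026797.2, whose share fell from 68.3% and 72.4% to 42.9% and 21.5%. Plekhb1 NM_001163187.1 went from 42.6% and 41.7% to 80.4% and 80.5% (adjusted p = 0.00953), and was not called without either P10 library or P21 replicate 1. In these genes both P21 libraries lay well apart from both P10 libraries.

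In a pair of genes among the largest changes the P21 libraries themselves differed. Rtn4 encodes the Nogo proteins of endoplasmic reticulum and myelin. Its short transcript NM_024226.4 (coding length 597 bases) had 0.761% and 0.719% at P10, 19.2% in P21 replicate 1, and 91.9% in replicate 2 (adjusted p = 3.42e-06). The long transcript NM_194054.3 (3486 bases) had 94.2% and 93.2% at P10 and 76.2% and 5.65% at P21, and its use was not called (adjusted p = 0.61). Pcdh1 XM_006526324.4, of a protocadherin gene, was at 3.52% and 4.45% at P10 and at 13.1% and 77.2% at P21 (adjusted p = 0.00338), and was not called without P10 replicate 1 or P21 replicate 1. The same split appeared at P15, where Rtn4 NM_024226.4 had 13.2% and 51.5% and the Pcdh1 transcript 10.2% and 81.4%, so in both genes most of the mean change came from the libraries numbered 2.

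Among myelin genes of the isoform list, Mbp and Cnp changed isoforms along with the level. The main transcripts of Mag and Mobp were not called for use (lowest adjusted p = 0.882, for Mobp NR_153958.1). Mbp transcript NM_001025256.2 (coding length 462 bases) rose from 0.515% and 0.669% of Mbp reads to 13.3% and 12.2% (adjusted p = 0.00224). The golli-type transcript NM_010777.3 (750 bases), which starts at an upstream exon, fell from 22.1% and 22.2% to 4.87% and 6.08% (adjusted p = 0.0411). The call of that fall was lost whichever of the 4 libraries was left out, and the rise was not called without either P10 library. Cnp NM_001146318.1 rose from 13.3% and 13% to 36.8% and 38.7% (adjusted p = 0.0121), again only with both P10 libraries in the fit. In these shares the replicates lay within 2 points of each other at P10 and at P21. At P15 they lay further apart, with 30.1% and 19.9% for Cnp NM_001146318.1 and 11.5% and 16.7% for Mbp NM_010777.3.

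Among axonal and cytoskeletal genes of the list, Mapt NM_001285456.1, a tau transcript, fell from 31.2% and 25.3% to 5.56% and 4.26% (adjusted p = 0.000526), with 72 and 94 reads of the gene left at P21. NM_001038609.2 rose from 0.4% and 0.461% to 8.33% and 8.51% (adjusted p = 0.00184), which is 6 and 8 reads at P21, and this rise was not called without P10 replicate 1 or P21 replicate 1. Mapt as a gene fell by 1.3 on the log2 scale (adjusted p = 0.00115). Ncam1 NM_001113204.1, of the neural cell adhesion molecule, fell from 24% and 22.3% to 6.30% and 6.91% (adjusted p = 0.00136) and was called without any one of the 4 libraries. Ank3 XM_006513129.3, of the ankyrin that organises the axon initial segment, fell from 23.7% and 20.9% to 5.72% and 7.82% (adjusted p = 0.00205), a call lost without P10 replicate 1 and without P21 replicate 1. Nfasc NM_182716.4, of the neurofascin of nodes and paranodes, fell from 83.5% and 75% to 36.6% and 25.7% (adjusted p = 0.0233), a call lost without either P10 library and without P21 replicate 2. Clta NM_001290470.2, of clathrin light chain a, rose from 2.34% and 3.04% to 12% and 18.2% (adjusted p = 0.00269), and was not called without P10 replicate 1 or either P21 library. For Grin1, no transcript was called for use by diffSpliceDGE, the lowest adjusted p being 0.365, which does not show that none changed. Its transcripts with the largest shares at P10 were split between the P21 libraries. NM_008169.3 had 35.7% and 34.1% at P10 and 31.2% and 6.49% at P21. NM_001177657.2 had 24% and 29.5% at P10 and 26.6% and 53.2% at P21.

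The same interval was set beside the control libraries, which are separate samples fitted with the same term. There, 1736 genes (12.8%) were called, 882 (6.5%) higher and 854 (6.30%) lower. Without the term 262 were called, and with a control library left out there were 881 (P10 replicate 1), 804 (P10 replicate 2), 660 (P21 replicate 1), and 1239 (P21 replicate 2). Of the 2034 genes of the S119A mice, 2004 (98.5%) changed in the same direction by sign in control and 30 in the opposite one, and 1126 were called there in the same direction. The control P10 and P21 libraries lay apart on the same side in 1751 (86.1%) and on the opposite side in 7. How often all genes tested agree between the genotypes in these ways was not counted. Both fitted changes come from the same fit with a shared term, so their shared signs are not independent evidence and are not shown to be particular to these genes. With control P21 replicate 1 alone, 2006 had the same sign. Of the myelin list 19 of 20 members were called as higher in control, with a median log2 change of 4.52. Immature neuron genes gave 18 lower calls of 20 and a median of -1.76, and dividing cell genes gave 8 lower calls of 14 and a median of -1.06. Mal changed by 7.35 in control against 7.36 in S119A, Mobp by 6.01 against 6.64, and Mog by 6.68 against 6.48. Of the 406 transcripts whose share changed in both P21 libraries, 403 moved in the same direction in control. The same count over all transcripts tested was not made.

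The difference between the genotypes was tested as an interaction of genotype and age. By edgeR, 0 of 13561 genes (0%) were called, 523 had an unadjusted p under 0.05, and the smallest adjusted p was 0.981. DESeq2 called 0 as well, with 249 at an unadjusted p under 0.05. A p that misses the threshold does not show that the genotypes changed alike. The widest gap lay in choroid plexus genes, with a median log2 change of -0.10 in S119A and -4.33 in control. In control, Ttr was at 176 and 5181 CPM at P10 and at 34.1 and 72.1 CPM at P21, so 1 control P10 library stood far above the others.

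**Figure D5:**
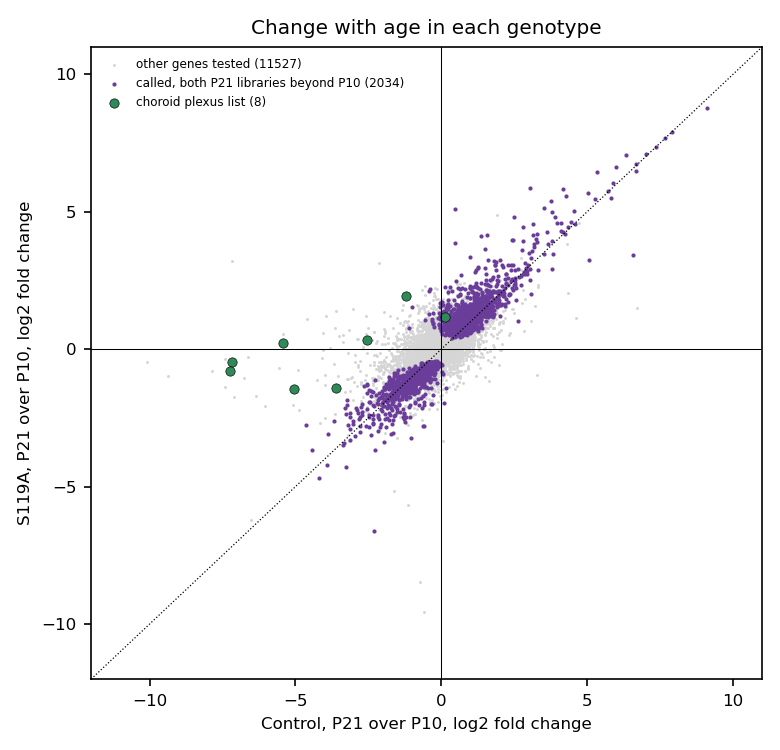
Each point is a gene, with the fitted log2 change from P10 to P21 in control (x axis) and in S119A (y axis), and with the 2034 genes that held in both S119A P21 libraries and the 8 choroid plexus genes marked. The 2034 genes lie along the dotted line of equal change, 2004 of them with the same sign, and the choroid plexus genes lie to the left of it.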

How the data were processed

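The authors copied hippocampal RNA into full-length cDNA (SMART-Seq with UMI), removed short cDNA, sequenced it on PromethION, and mapped it with minimap2 to mm10. Secondary and low-quality alignments were discarded (SAMtools), and IsoQuant gave the read counts per transcript that were deposited, neither normalized nor pooled. The table of 122459 transcripts was matched to the RefSeq table of GRCm38.p6 by accession, 119242 matched with 98.2% of reads, and counts were summed per gene. The values after ± are standard errors from the quasi-likelihood test, so they include its estimate of the spread between libraries. Floors cover counting error only, and do not allow for the amplification of reads.

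Counts were fitted with edgeR 4.0.16 (TMM, filterByExpr, quasi-likelihood test, Benjamini-Hochberg over all features, threshold 0.05) over all 12 hippocampus libraries, with 6 group coefficients and a term for the 4 libraries numbered 2 at P15 and P21, in which the biological coefficient of variation was 0.150 against 0.438 without the term. Use of transcripts was tested with diffSpliceDGE. The sources used here state no test for these counts. Deviations of same-numbered libraries correlated at 0.823 to 0.905 among the P15 and P21 groups but at -0.237 to 0.0626 with a P10 group, so the numbers do not pair the samples. In simulated counts over 13561 genes this fit called 57% of genes with a log2 change of 1 and 87% with one of 2, and 8.28% of its calls were false, above the threshold. For transcript use (16799 transcripts) it called 0% and 22.9%, with 3.70% false. The simulated counts were drawn from the fit itself, with its own spread and its term, so these rates hold only where that model does. Without the term, edgeR called 0% and 10% of the simulated gene changes, with 0% of its calls false.

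The comparison and all 22 gene lists were chosen with earlier results of these data known. Named are Pxn, the defining markers of each list, the up to 2 members of a list with the largest rise and fall that held in both P21 libraries, the 10 largest rises and falls over all genes at least 2-fold in both P21 libraries with a mean of at least 10 CPM at the higher age, and for isoforms the 8 genes with the largest change of share among genes with at least 100 reads in each library, with the called genes of the isoform list. Exons were read from GENCODE M21 (GRCm38), matched by accession ignoring the version. Alternatives were DESeq2 1.42.0, limma 3.58.1 (voom and diffSplice), other size factors, no filter, fits without the term, of 8 or 4 libraries or with a replicate block, and leaving out each library. The work was done in R 4.3.3 and in Python 3.11.15 with pandas 2.3.3, numpy 2.4.6, and matplotlib 3.10.9. Cortical cultures were not analysed here, and results on a few genes are not reported here.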

Additional observations from a re-analysis of the deposited data

How the results depend on the processing

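The counts rest on the term for the 4 libraries numbered 2 at P15 and P21. Without it, 313 genes were called (313 in both P21 libraries), 389 transcripts, 22 transcript uses, and 262 genes in control, and higher calls made up 64.5% of the genes against 50.5%. With the replicate number as a block in place of the term the counts were 536, 536, 671, 54, and 431. The numbers do not pair the samples. Fitted alone, the 4 libraries gave 0 genes (0 in both) and 0 transcripts, with 2254 genes and 3930 transcripts at an unadjusted p under 0.05, and 30 transcript uses. Fitting only the 8 libraries not numbered 2 at P15 or P21 raised the genes that held to 3338, where only P21 replicate 1 is left, and the control genes to 2613. limma's diffSplice called 681 transcript uses, edgeR's 430. Other size factors, no filter, and DESeq2 left the genes between 2005 and 2689 and those that held between 1666 and 2212.

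Leaving out each library in turn gave 1000 to 2374 genes, 921 to 2176 that held, 1540 to 3332 transcripts, 144 to 317 transcript uses, and 660 to 1239 genes in control. The share of higher calls was 63.5% and 63.3% without either control P10 library, 60.7% without control P21 replicate 1, 62.4% without S119A P10 replicate 1, and 60.3% without S119A P21 replicate 1. Leaving out control libraries was chosen after seeing the data. For the interaction of genotype and age the count was 0 to 1 with a library left out, the 1 being Enpp2 without control P10 replicate 1 and Ptgds without S119A P10 replicate 2. Without the filter it was 11 (Kcnj13, Aqp1, Cldn2, Col1a1, Kif1a, Kitl, Pcolce, Enpp2, Trh, Ttr, and Sulf1, each with a higher log2 change in S119A than in control, and named here after their values were seen). The change of Pxn ranged from 0.25 to 0.98 and was never called (lowest adjusted p 0.262).

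Of 98 named gene and 57 named isoform results, the signs that turned belong to genes that were not called in those fits. Ttr turned to 0.91 without the term, 0.92 in the 4 libraries, and 0.28 in the 8, and ranged from -2.74 to 0.87 with a library left out. Prox1 turned to -0.32, -0.31, and -0.41 in these fits and to -0.29 with the block, and ranged from -0.42 to 0.92. Rbfox3 turned to -0.83 without the term and in the 4 libraries and to -2.79 with the block, and Grin2b to 0.40, 0.41, and 0.33. With the block, Slc1a2 turned to -0.55 and Slc12a5 to -0.42. With a library left out, Grin2b ranged from -0.35 to 0.55, Cntn2 from -0.70 to 1.09, Pdgfra from -0.66 to 0.61, Sst from -0.65 to 0.46, and Acan from -0.12 to 0.75. Calls of named genes were lost by 46 without the term, 32 with the block besides the 2 that turned sign, 3 by DESeq2 (Cldn5, Mbnl1, and Tln1), 1 with other size factors (Tln1), and 21, 16, 15, and 9 without S119A P10 replicate 1, P10 replicate 2, P21 replicate 1, and P21 replicate 2. Of the isoform calls, 51 were lost without the term, 45 with the block, 9 without the filter, 8 by limma's diffSplice, and 37, 28, 27, and 13 with these libraries left out. The cause was not tested.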
